A study of Mus musculus with 44 samples.

Results

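Netazepide (NTZ), an antagonist of the gastrin receptor, was compared with its vehicle in the stomach corpus of mice with a knockout (KO) of the beta subunit of H+/K+ATPase, the proton pump, by sequencing of polyadenylated RNA. The members of the comparison were all libraries labelled KO_YF, YF being the label for NTZ, and all libraries labelled KO_PEG. They numbered 11 KO/NTZ and 13 KO/PEG, together 24 of the 44 libraries of the series. The other 20 libraries were 11 from wild-type (WT) mice given PEG and 9 from WT mice given NTZ, and they were used only where the effect of NTZ in KO was set against that in WT. All mice of the 4 groups were BalbC, female and 13 months old at sampling. KO mice lack the beta subunit in every cell of the body, since birth, and both KO groups carried that deletion. NTZ dissolved in polyethylene glycol (PEG), or PEG alone, was injected under the skin every other week from the age of 1 month. Each library came from a homogenised biopsy of the ventral corpus mucosa, so that epithelium, stroma and any muscle, nerve and blood cells in it contributed to 1 measurement.

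Gastrin is the hormone of the antral G cells. It acts through the cholecystokinin B receptor, encoded by Cckbr, on parietal cells and on enterochromaffin-like (ECL) cells of the corpus, and ECL cells answer with histamine, which drives the proton pump of the parietal cells. Without a working pump the stomach loses its acid and the brake on gastrin release, and ECL cells exposed to high gastrin multiply. KO stomachs also develop a thickened mucosa with mucous cells of the type named spasmolytic polypeptide-expressing metaplasia (SPEM). The paper reports low expression of chief cell markers in them. In RNA from whole tissue, fewer cells of a type and less RNA in each cell cannot be told apart.

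The labels were checked on the deleted gene. Atp4b, the beta subunit, reached 2880 to 5761 CPM (counts scaled to a common library total) in WT/PEG and 2141 to 5110 CPM in WT/NTZ. It was at 2.34 to 17.2 CPM in KO/PEG and at 4.20 to 40.5 CPM in KO/NTZ, so that no KO library came near the WT range. Summed estimated counts ran from 6065084 to 21945124 in the KO libraries, with a median of 13045631 in KO/PEG and 12279913 in KO/NTZ, and 3 counts, taken as the limit of detection, equalled 0.137 to 0.495 CPM. Transcripts of the mitochondrial genome took 2.39% to 14.5% of the counts in KO/PEG (median 4.86%) and 1.88% to 7.04% in KO/NTZ (median 3.81%), a difference that a two-sided permutation test did not separate (p = 0.33, 100000 resamples). The first principal component of the 24 libraries held 45.6% of the variance and followed the mitochondrial share (Pearson r = 0.90 over 24 libraries, as a description); the groups overlapped on it, and KO/NTZ 29, KO/NTZ 37 and KO/PEG 46 lay at its ends. The labels number the animals, and 6 KO/PEG but 10 KO/NTZ libraries carry a number below 100, against 7 KO/PEG and 1 KO/NTZ from 100 upward. What the numbers mean is not stated, so results are also given for the animals numbered below 100, while the other class, with 1 KO/NTZ library, allowed no such value. In WT the classes were uneven too. WT/PEG numbers start at 120, while WT/NTZ holds 86, 92, 93, 98 and 99. No value within a class was made for the effect in WT or for the difference between KO and WT. The number 110 stands on a KO/PEG and on a KO/NTZ library. The labels list 13 KO/PEG libraries, more than the 10 mice that the paper assigned to that group at its start. The paper also states that 1 KO/PEG mouse died during the study, so that fewer than 10 were left at sampling. Which of these libraries are repeats, carry a wrong label or come from other mice is not stated. No 2 KO libraries matched within counting noise. Nothing in the labels states that each library is another animal, and if some are not, p-values measure in part technical spread.

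Genes of ECL cells and of their secretory granules were among those that fell. The promoters of Hdc, Chgb and Chga, from the list of ECL cell genes, and of Pcsk1, from the list of prohormone processing, are shown because the genes fell under NTZ, and because gastrin-responsive promoters have been studied for cyclic AMP response elements (CRE) and GC boxes. Each sequence holds 250 bases before and 50 bases from the RefSeq start of the gene, 5′ to 3′ on the strand of the gene, from the RefSeq table on GRCm38.p6, and capitals mark matches to 5 motifs on either strand. The full CRE was searched as TGACGTCA. Its core, which every full CRE holds on both strands, was searched as TGACG. The GC box was searched as GGGCGG, so that CCGCCC marks it on the other strand. For the TATA box the letters were TATAAA. For AP-1, the factor of Fos and Jun proteins, they were TGANTCA. Hdc lies at chr2:126618629-126618928 on the minus strand, Chgb at chr2:132781392-132781691, Chga at chr12:102554691-102554990 and Pcsk1 at chr13:75089607-75089906, all 3 on the plus strand.
Hdc: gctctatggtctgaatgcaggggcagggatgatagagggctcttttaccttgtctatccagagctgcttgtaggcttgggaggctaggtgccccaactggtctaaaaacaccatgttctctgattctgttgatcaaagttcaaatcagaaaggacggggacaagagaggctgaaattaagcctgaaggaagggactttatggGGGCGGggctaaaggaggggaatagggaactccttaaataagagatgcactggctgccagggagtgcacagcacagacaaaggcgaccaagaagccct
Chgb: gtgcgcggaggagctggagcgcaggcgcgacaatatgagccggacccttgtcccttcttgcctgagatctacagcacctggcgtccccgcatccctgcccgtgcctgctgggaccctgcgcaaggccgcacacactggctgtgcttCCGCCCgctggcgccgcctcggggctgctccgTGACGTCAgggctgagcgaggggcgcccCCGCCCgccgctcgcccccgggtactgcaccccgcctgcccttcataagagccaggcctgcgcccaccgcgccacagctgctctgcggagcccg
Chga: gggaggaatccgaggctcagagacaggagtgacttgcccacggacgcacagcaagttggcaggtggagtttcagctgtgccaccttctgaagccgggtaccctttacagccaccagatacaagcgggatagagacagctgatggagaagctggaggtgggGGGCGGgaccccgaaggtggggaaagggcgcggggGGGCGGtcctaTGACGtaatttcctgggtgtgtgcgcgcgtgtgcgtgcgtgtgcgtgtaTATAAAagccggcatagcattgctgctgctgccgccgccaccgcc
Pcsk1: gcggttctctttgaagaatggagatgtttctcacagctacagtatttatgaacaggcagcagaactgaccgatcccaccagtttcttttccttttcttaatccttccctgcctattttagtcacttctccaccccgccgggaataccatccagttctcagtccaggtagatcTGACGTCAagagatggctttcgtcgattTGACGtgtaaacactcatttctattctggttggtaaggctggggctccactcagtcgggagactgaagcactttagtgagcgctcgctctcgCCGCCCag
Of 32817 promoters in that table, 1.792% held a full CRE, 20.79% its core, 35.63% a GC box, 13.62% a TATA box and 7.813% an AP-1 match. Chgb and Pcsk1 each held 1 full CRE, which began 72 and 78 bases before the start. Chga held the core without the full element, 2 GC boxes and a match to the TATA box letters, and Hdc held 1 GC box and none of the other motifs. The TATA match of Chga lies past the RefSeq start, with its first letter at base 6 counted from it. The promoters of Pappa2 and Cckbr, the other ECL cell genes that fell, held none of the 5 motifs, and their sequences are not shown. That of Pcsk1n, a gene of prohormone processing that rose under NTZ, held 1 GC box and 1 AP-1 match and is not shown either. A match describes letters in the window and no more.

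Over all genes, 14030 passed the filter on low counts and 267 of them (1.9%) differed between KO/NTZ and KO/PEG by the quasi-likelihood test of edgeR at 0.05, adjusted over all genes by the Benjamini-Hochberg method. Under NTZ, 146 genes (1.04% of those tested) were higher and the rest (0.862%) were lower. DESeq2 called 566 genes (4.03%) and limma-trend 255 (1.82%), the fit of all 44 libraries 852 (5.71%), and a fit with the first principal component as a covariate, added after seeing the data, 470 (3.35%). The balance of directions depended on the scaling: with library totals alone, which moved the median of all genes to -0.10, 67 of 162 called genes were higher and 95 lower, so that higher genes made up 41.4% in place of 54.7%. The lower genes moved further: their median log2 fold change was -1.19 against 0.84 for the higher genes, and 69 lower and 50 higher genes changed at least 2-fold. The median over all genes was -0.02. In 7 genes (0.0499%) the CPM ranges of the groups did not overlap, namely Gc, Hdc, Ahsg, Rspo4, Serpina7 and Dynap, all lower, and Adgrb1, higher. The number of genes past the threshold depended on single libraries: it was 153 without KO/PEG 31, 161 without KO/NTZ 110, 166 without KO/NTZ 37, 167 without KO/NTZ 36 and 174 without KO/NTZ 30. In the animals numbered below 100, 102 genes (0.704%) passed, 78 lower (0.538%) and 24 higher (0.166%), and 68 of the 267 were among them, while all 266 that could be tested there kept their sign. Those libraries are part of the set that gave the 267 calls, so that the shared sign is no separate test.

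**Figure D1:**
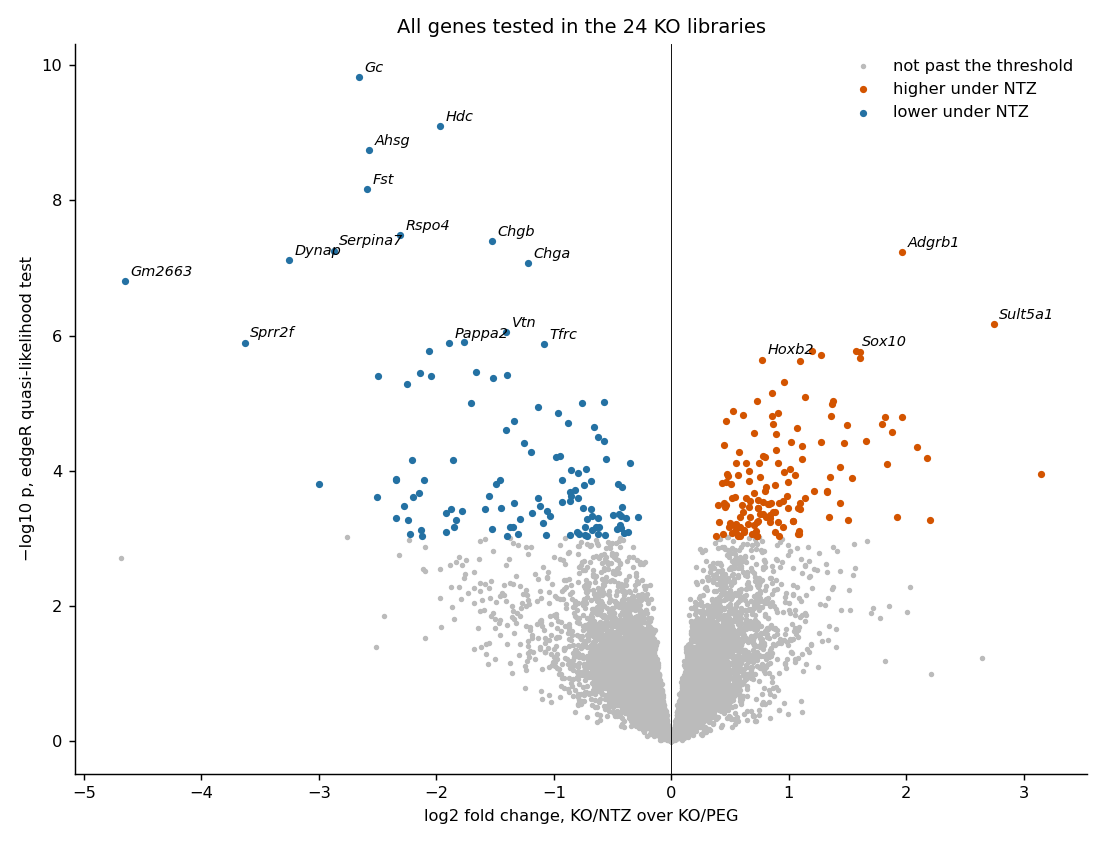
Each point is 1 of 14030 genes, with the log2 fold change of KO/NTZ over KO/PEG on the horizontal axis and −log10 of the unadjusted p of edgeR's quasi-likelihood test on the vertical axis; orange marks the 146 higher and blue the lower genes. The genes with the smallest p, Gc, Hdc, Ahsg and Fst, all lay on the lower side.

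Histidine decarboxylase, the enzyme that makes histamine and the defining product of ECL cells, fell 3.91-fold. Hdc reached 35.2 to 117.8 CPM in KO/PEG (median 74.2) and 12.5 to 35.1 CPM in KO/NTZ (median 16.1). The highest treated library stayed just below the lowest vehicle library. The log2 fold change was -1.97 ± 0.21 (SE, n = 11 and 13 libraries, adjusted p = 5.62e-06, edgeR's quasi-likelihood test), and in the animals numbered below 100 it was -1.68 (adjusted p = 0.00322).

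Chromogranins A and B, proteins of endocrine secretory granules, also fell. Chga, encoding chromogranin A, ran from 737 to 2452 CPM in KO/PEG (median 1782) and from 567 to 849 CPM in KO/NTZ (median 692). The treated libraries formed a narrow band, and 6 of the 11 lay below every vehicle library. The log2 fold change of Chga was -1.22 ± 0.16 (adjusted p = 0.000119, edgeR's quasi-likelihood test). Chgb, encoding chromogranin B, fell from a median of 77.3 CPM (30.9 to 134) to 26.3 CPM (13.5 to 37.97), with 7 treated libraries below every vehicle library and a log2 fold change of -1.53 ± 0.20. Cckbr, the receptor that NTZ blocks, went from a median of 20.3 CPM (9.29 to 32.2) to 9.38 CPM (4.85 to 17.2). Its log2 fold change was -0.98 ± 0.21 (adjusted p = 0.0111, edgeR's quasi-likelihood test), and -0.71 with an adjusted p of 0.166 in the animals numbered below 100.

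Of 12 ECL cell genes tested, 5 fell (Hdc, Chgb, Chga, Pappa2 and Cckbr) and none rose, with a list median of -0.81 against -0.02 over all genes. Pappa2, a protease of insulin-like growth factor binding proteins, fell by 1.89 ± 0.30 on the log2 scale. Slc18a2, the vesicular monoamine transporter that loads histamine into granules, had medians of 32.5 CPM in KO/PEG and 16.1 CPM in KO/NTZ, and did not pass (log2 fold change -0.79 ± 0.25, adjusted p = 0.111, edgeR's quasi-likelihood test). It passed by DESeq2 (adjusted p = 0.0441), in the fit of all 44 libraries (0.0164) and with the mitochondrial percent as a covariate (0.0189). The summed level of the list was 911 to 2766 CPM in KO/PEG and 658 to 1029 CPM in KO/NTZ, a ratio of means of 0.43 (two-sided permutation test, 100000 resamples, p = 2e-05, the smallest these resamples can give, adjusted p = 0.00056 over 28 library properties). Chga made up most of this sum, with a mean of 1635 of 1906 CPM in KO/PEG and 703 of 825 CPM in KO/NTZ. The test of the sum is thus largely a test of Chga.

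**Figure D2:**
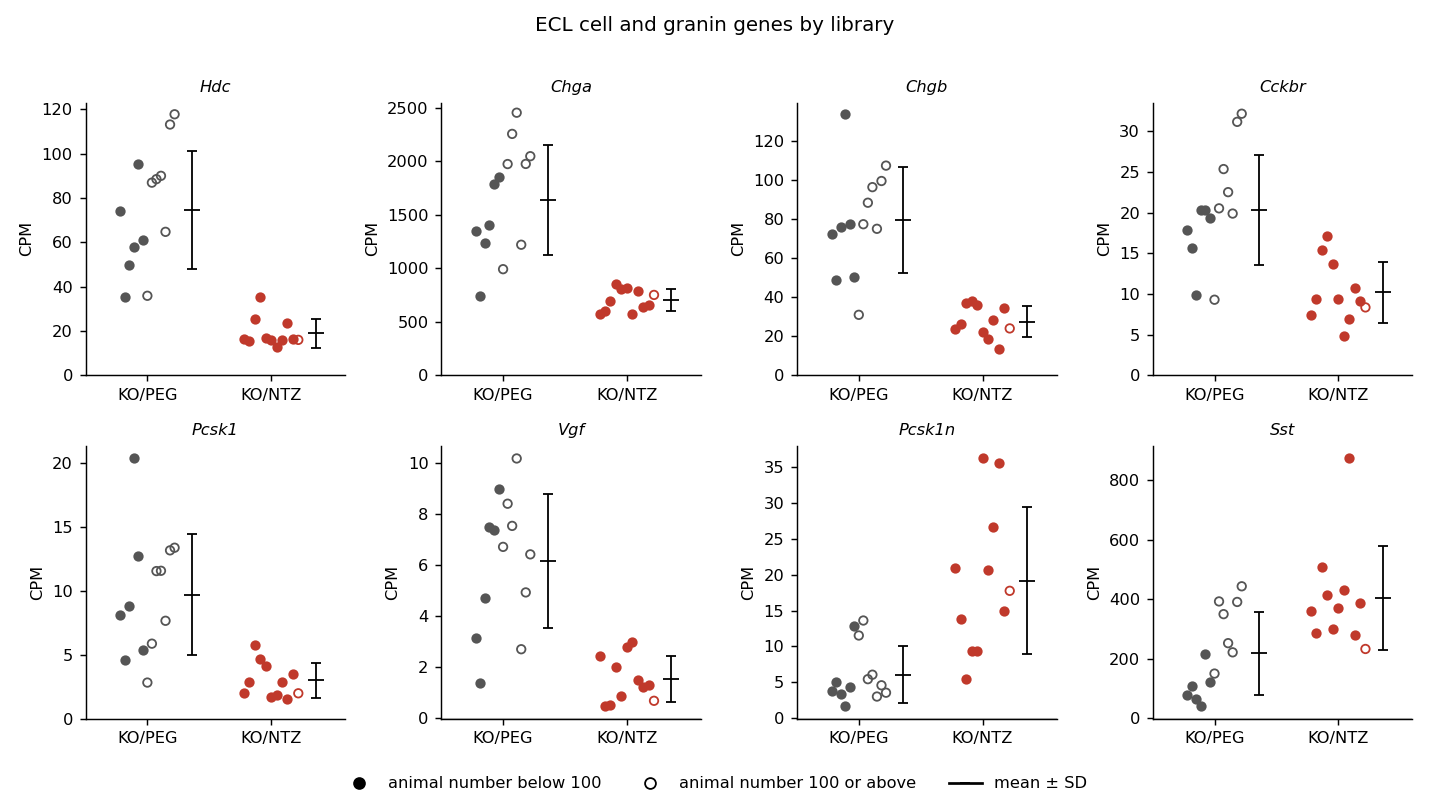
Each point is the CPM of 1 gene in 1 library, 13 KO/PEG (grey) and 11 KO/NTZ (red), filled for animals numbered below 100 and open from 100 upward, with the mean and SD beside each group; each panel has its own axis from 0. Hdc does not overlap between the groups, Chga of all treated libraries lies within 567 to 849 CPM, and Pcsk1n is the panel in which treated libraries lie higher past the threshold.

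Enzymes and cargo of regulated secretion moved both ways. Of 15 genes for granins and prohormone processing, 4 fell and 1 rose. Vgf, a granin induced by growth factors in neurons and endocrine cells, fell from a median of 6.70 CPM (1.35 to 10.2) to 1.28 CPM (0.448 to 2.98). Pcsk1, the prohormone convertase 1/3, fell from 8.79 CPM (2.82 to 20.4) to 2.87 CPM (1.52 to 5.77). Pcsk1n, which encodes proSAAS, an inhibitor of that convertase, went the other way: it was at 1.65 to 13.6 CPM in KO/PEG (median 4.57) and at 5.44 to 36.2 CPM in KO/NTZ (median 17.8), where 8 of 11 libraries exceeded every vehicle library. The log2 fold changes were -2.07 ± 0.33 for Vgf, -1.66 ± 0.28 for Pcsk1 and 1.66 ± 0.33 for Pcsk1n (adjusted p = 0.00118, 0.00184 and 0.00797, edgeR's quasi-likelihood test). In the animals numbered below 100 Pcsk1 passed, while Vgf and Pcsk1n kept their sign with adjusted p of 0.0544 and 0.0626.

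Hormones of the other corpus endocrine cells held no fall past the threshold. None of the 6 tested passed by edgeR's quasi-likelihood test, by DESeq2 or by limma-trend, 2 had an unadjusted p under 0.05, and both of these were higher. Somatostatin, the product of D cells that restrains ECL cells, ran from 39.5 to 443 CPM in KO/PEG (median 215) and from 232 to 873 CPM in KO/NTZ (median 368), with a log2 fold change of 0.89 ± 0.33 (adjusted p = 0.171, edgeR's quasi-likelihood test). Within the animals numbered below 100 Sst was 2.02 higher on the log2 scale under NTZ (adjusted p = 0.0112), and it also passed in the fit of all 44 libraries (0.89, adjusted p = 0.0362) and with the number class as a covariate (1.72, adjusted p = 0.0155). The vehicle libraries below 100 were low for Sst, as the plot of ECL cell genes by library shows. Ghrl, encoding ghrelin, changed by 0.32 ± 0.16 and Tph1, the rate-limiting enzyme of serotonin synthesis, by 0.18 ± 0.22. Of 8 transcription factors of endocrine cells none passed by any of the 3 tools, and 1 had an unadjusted p under 0.05.

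Secreted proteins best known as products of the liver held some of the firmest changes. Gc, the vitamin D-binding protein, had the smallest p of all genes: it was at 9.87 to 41.0 CPM in KO/PEG (median 24.5) and at 1.97 to 6.34 CPM in KO/NTZ (median 3.92). Every treated library lay below every vehicle library. The fall was 6.32-fold (log2 fold change -2.66 ± 0.26, adjusted p = 2.09e-06, edgeR's quasi-likelihood test), and -2.59 in the animals numbered below 100 (adjusted p = 0.000987). Ahsg, encoding fetuin-A, an inhibitor of calcification, fell from a median of 6.48 CPM (3.997 to 14.9) to 1.24 CPM (0.187 to 2.77), again without overlap. Serpina7, the thyroxine-binding globulin, fell from 14.3 CPM (4.68 to 29.3) to 1.25 CPM (0.578 to 4.02). These changes were 5.95-fold for Ahsg and 7.32-fold for Serpina7, with adjusted p of 8.47e-06 and 0.000101 by edgeR's quasi-likelihood test. Vtn, encoding the adhesive plasma protein vitronectin, fell by 1.40 ± 0.22 on the log2 scale, and Agt, angiotensinogen, by 0.96 ± 0.18. Of 17 genes on the list of liver-type plasma proteins 4 fell (Gc, Ahsg, Vtn and Agt) and none rose. The list median of -0.12 lay close to that of all genes, and Alb, encoding albumin, which leads liver tissue, had a log2 fold change of 0.42 with an adjusted p of 0.48 by edgeR's quasi-likelihood test.

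Signals that pattern the epithelium changed in single members rather than as families. Fst, encoding follistatin, which binds and silences activins, fell 6.02-fold, from 1.45 to 9.28 CPM in KO/PEG (median 5.54) to 0.167 to 1.51 CPM in KO/NTZ (median 0.746). Rspo4, an R-spondin that amplifies Wnt signals, fell from a median of 1.95 CPM (0.823 to 3.42) to 0.334 CPM (0 to 0.670), without overlap. For both genes several treated libraries lay near the limit of detection. The log2 fold changes were -2.59 ± 0.30 for Fst and -2.31 ± 0.30 for Rspo4, and both passed in the animals numbered below 100. Chrd, encoding chordin, an inhibitor of bone morphogenetic proteins, rose by 0.89 ± 0.22 and Sfrp1, a secreted Wnt inhibitor, by 0.51 ± 0.12. The call for Chrd was lost when any of 9 single libraries was left out (highest adjusted p = 0.0667 without KO/NTZ 36, edgeR's quasi-likelihood test). The 22 genes of bone morphogenetic protein, activin and hedgehog signalling held 1 higher and 1 lower gene, and the 21 of Wnt, R-spondins and stem cells held 1 and 1, with medians of 0.11 and -0.05. None of the 13 genes for ligands and receptors of the epidermal growth factor family passed, while 2 had an unadjusted p under 0.05, DESeq2 called 1 and limma-trend none. Barx1, the homeobox gene that marks stomach mesenchyme, was the 1 called gene of 22 gastric transcription factors and rose from a median of 19.0 CPM (13.4 to 30.4) to 35.4 CPM (19.0 to 57.2).

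Genes of the metaplastic and mucous epithelium held few changes, within a wide spread. Tff2, the spasmolytic polypeptide, was at 964 to 30442 CPM in KO/PEG (median 11032) and at 7260 to 32680 CPM in KO/NTZ (median 13627). The log2 fold change was 0.45 ± 0.47 (adjusted p = 0.583, edgeR's quasi-likelihood test), with an SE as large as the estimate. Muc6, the mucin of mucous neck cells, had a log2 fold change of 0.49 ± 0.46. Of 13 genes of mucous neck and SPEM cells 2 fell, Mal2, a protein of apical sorting, by 0.74 ± 0.17 and Olfm4, a stem cell product of the intestine, by 2.22 ± 0.59. The call for Olfm4 (adjusted p = 0.0487, edgeR's quasi-likelihood test) was lost without any of 18 single libraries. Among mucins, Muc5b, a gel-forming mucin of airways and salivary glands, fell from a median of 9.05 CPM (1.71 to 20.7) to 1.70 CPM (0.888 to 4.05), and Muc13, a membrane mucin, from 17.8 CPM (7.42 to 116.9) to 7.58 CPM (2.42 to 15.6). Muc5b and Muc13 were the 2 called of 11 mucins, with log2 fold changes of -2.25 ± 0.39 and -2.11 ± 0.47. Both also fell in the animals numbered below 100, by 2.62 and 3.02 on the log2 scale. Muc13 did not pass with the first principal component as a covariate (adjusted p = 0.0505) or without the 3 libraries at the ends of that component (0.0639).

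Genes of parietal and chief cells held 1 call between them by edgeR's quasi-likelihood test. Atp4a, the catalytic subunit of the pump, had medians of 3920 CPM in KO/PEG and 3228 CPM in KO/NTZ and a log2 fold change of -0.36 ± 0.20 (adjusted p = 0.356, edgeR's quasi-likelihood test). Of 16 parietal cell genes 1 fell, Kcnq1, the potassium channel that recycles potassium for the pump, by 0.57 ± 0.11 on the log2 scale. Another 7 of the list had an unadjusted p under 0.05 on the lower side. The list median was -0.35, with 14 of the 16 genes below 0. DESeq2 called 3 of the 16 lower, the fit of all 44 libraries 4 and limma-trend 1. In the animals numbered below 100 none passed and the median was -0.18. The summed level was 0.81 times that of KO/PEG in the mean (permutation test, p = 0.048, adjusted p = 0.17). None of 9 chief cell genes passed by edgeR's quasi-likelihood test, DESeq2 or limma-trend, and 3 were lower at an unadjusted p under 0.05. Pgc, encoding the zymogen progastricsin, changed by -0.25 ± 0.46 and Gif, intrinsic factor, by -0.87 ± 0.64, both far from the threshold. Of 16 surface pit cell genes 1 rose, Gsdmc2, a gasdermin, by 0.98 ± 0.23. Clca1, a secreted protease of goblet cell mucus, rose from a median of 1132 CPM (348 to 3103) to 3053 CPM (1915 to 5134), and Scnn1a, a subunit of the epithelial sodium channel, from 49.6 CPM (43.4 to 75.5) to 73.2 CPM (61.2 to 105). In each, 5 treated libraries exceeded all vehicle libraries. Neither passed in the animals numbered below 100 (adjusted p = 0.160 for Clca1 and 0.174 for Scnn1a, edgeR's quasi-likelihood test), nor did Kcnq1 (0.105) or Gsdmc2 (0.212), and Clca1 had an adjusted p of 0.0695 in the fit of all 44 libraries.

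The 3 Reg lectins tested, Reg1, Reg3b and Reg3g, secreted proteins of injured and inflamed epithelium, fell with a wide spread in the vehicle group, by 1.53 ± 0.40, 3.003 ± 0.68 and 2.13 ± 0.56 on the log2 scale. A few vehicle libraries carried much of this: Reg3g ran from 10.6 to 286 CPM in KO/PEG with a median of 23.7, and from 4.02 to 25.5 CPM in KO/NTZ with a median of 6.27. The calls for Reg1 and Reg3g (adjusted p = 0.0447 and 0.0455, edgeR's quasi-likelihood test) were lost without any of 15 and 14 single libraries, that for Reg3b in none, and Reg3b and Reg3g are close copies between which reads can be split. None of the 3 passed with the first principal component as a covariate or without the 3 libraries at its ends, and Reg3b alone passed with the mitochondrial percent as a covariate and by limma-trend. The part of that component in the falls was not tested. Of 14 genes on the list of epithelial defence 2 fell, Reg3g and the mucosal chemokine Ccl28, which was named after its values were seen, and the list median was -0.06. Neither passed with the first principal component as a covariate. Vnn1, a pantetheinase, fell from a median of 70.1 CPM (33.4 to 206) to 30.05 CPM (16.0 to 43.2), with 8 treated libraries below every vehicle library. Its log2 fold change was -1.76 ± 0.28 (adjusted p = 0.00111, edgeR's quasi-likelihood test). Sprr2f, a small proline-rich protein of the cornified envelope from a family of near copies, fell from a median of 6.08 CPM (0.941 to 38.5) to 0.858 CPM (0.179 to 2.59), and was the 1 called of 8 genes on that list. Dynap fell from 2.19 CPM (0.923 to 5.64) to 0.172 CPM (0 to 0.751) and Gm2663 from 1.47 CPM (0.164 to 5.32) to 0 (0 to 0.250). Most treated libraries were under 3 counts for both, so that their fitted fold changes depend on the prior count.

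Stromal, inflammatory and vessel genes leaned downward in their list medians. Of 23 genes for matricellular proteins and matrix remodelling 4 fell and none rose, with a median of -0.34. Thbs1, encoding thrombospondin 1, fell from 53.7 CPM (14.8 to 135) to 15.3 CPM (7.83 to 29.05), Mmp12, the macrophage elastase, from 9.27 CPM (4.98 to 27.8) to 4.67 CPM (2.80 to 8.10), and Sparc, a collagen-binding matricellular protein, from 166 CPM (106 to 284) to 102.98 CPM (56.4 to 157), each value a median with the range. The groups overlapped in all 3. Their log2 fold changes were -1.70 ± 0.31, -1.34 ± 0.25 and -0.73 ± 0.16, and Mmp12 was the 1 of these 3 that passed in the animals numbered below 100. All 20 genes of macrophages and myeloid cells had a log2 fold change below 0 and 11 an unadjusted p under 0.05. Mmp12 alone passed by edgeR's quasi-likelihood test and 1 gene by limma-trend, while DESeq2 called 4. Their summed level was 439 to 1413 CPM in KO/PEG and 427 to 740 CPM in KO/NTZ (permutation test, p = 0.030, adjusted p = 0.14).

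Cxcl1, a neutrophil chemokine, fell from a median of 2.20 CPM (0.875 to 5.53) to 0.758 CPM (0.370 to 1.59) and Il1b, encoding interleukin 1 beta, from 5.18 CPM (2.45 to 8.64) to 2.25 CPM (0.560 to 4.10). The call for Il1b (adjusted p = 0.0489, edgeR's quasi-likelihood test) was lost without any of 17 single libraries. These were the 2 called of 6 tested genes for neutrophils and acute inflammation, of 18 listed, and the summed level of the 6 was 6.76 to 18.5 CPM in KO/PEG and 6.27 to 10.6 CPM in KO/NTZ, a ratio of means of 0.58 (permutation test, adjusted p = 0.0053). Of 15 endothelial genes Cdh5, encoding VE-cadherin, and Kdr, the receptor 2 for vascular endothelial growth factor, fell by 0.66 ± 0.13 and 0.74 ± 0.20 on the log2 scale. The endothelial list median was -0.29, while the summed level of that list was 1.12 times higher under NTZ in the mean (permutation test, adjusted p = 0.62). Col1a1 and Col4a1, chains of collagens of the interstitium and of basement membranes, fell by 0.63 ± 0.16 and 0.42 ± 0.11, while Fbln1, a fibulin, rose by 0.57 ± 0.12 among 26 genes of fibroblasts and collagens. The calls for Kdr, Col1a1 and Col4a1 were each lost without some single libraries (18, 11 and 9 of 24). None of them passed with the first principal component as a covariate, nor did Il1b. In that fit the median of the 26 genes of fibroblasts and collagens was -0.02 in place of -0.30, while 5 of the 15 endothelial genes were called lower.

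Part of the smooth muscle and nerve genes rose. All 13 smooth muscle genes had a log2 fold change above 0, the list median was 0.60, and 6 passed: Smtn (smoothelin), Acta2 (smooth muscle actin), Tagln (transgelin), Lmod1, Myl9 and Des. Acta2 went from a median of 524 CPM (341 to 823) to 928 CPM (615 to 1411), and Smtn from 61.7 CPM (43.0 to 92.4) to 107 CPM (65.4 to 167). For both, 8 of 11 treated libraries exceeded every vehicle library. Their log2 fold changes were 0.76 ± 0.17 and 0.86 ± 0.16 (adjusted p = 0.017 and 0.00456, edgeR's quasi-likelihood test). The summed level of the list was 1483 to 5174 CPM in KO/PEG and 2979 to 6539 CPM in KO/NTZ, a ratio of means of 1.58 (permutation test, adjusted p = 0.032). None of the 13 passed in the animals numbered below 100, and 2 passed without any 1 of KO/PEG 31, KO_137_KO_PEG, KO_144_KO_PEG or KO/NTZ 36, 51 or 110.

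Of 14 genes of neurons and glia 3 rose and none fell, with a median of 0.77. Sox10, the transcription factor of enteric glia, went from a median of 0.526 CPM (0.0789 to 1.05) to 1.75 CPM (0.985 to 2.58), and 10 of 11 treated libraries exceeded all vehicle libraries. Uchl1, a deubiquitinase abundant in neurons and endocrine cells, rose from 6.25 CPM (3.24 to 12.0) to 13.8 CPM (4.41 to 18.9) and Prph, the peripherin of peripheral neurons, from 2.02 CPM (0.725 to 3.43) to 5.92 CPM (1.32 to 10.3). The log2 fold changes were 1.57 ± 0.25 for Sox10, 1.07 ± 0.21 for Uchl1 and 1.47 ± 0.30 for Prph, and Sox10 and Uchl1 also passed in the animals numbered below 100. The summed level of the 14 was 25.1 to 68.7 CPM in KO/PEG and 30.04 to 91.9 CPM in KO/NTZ, 1.47 times higher in the mean (permutation test, adjusted p = 0.046).

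**Figure D3:**
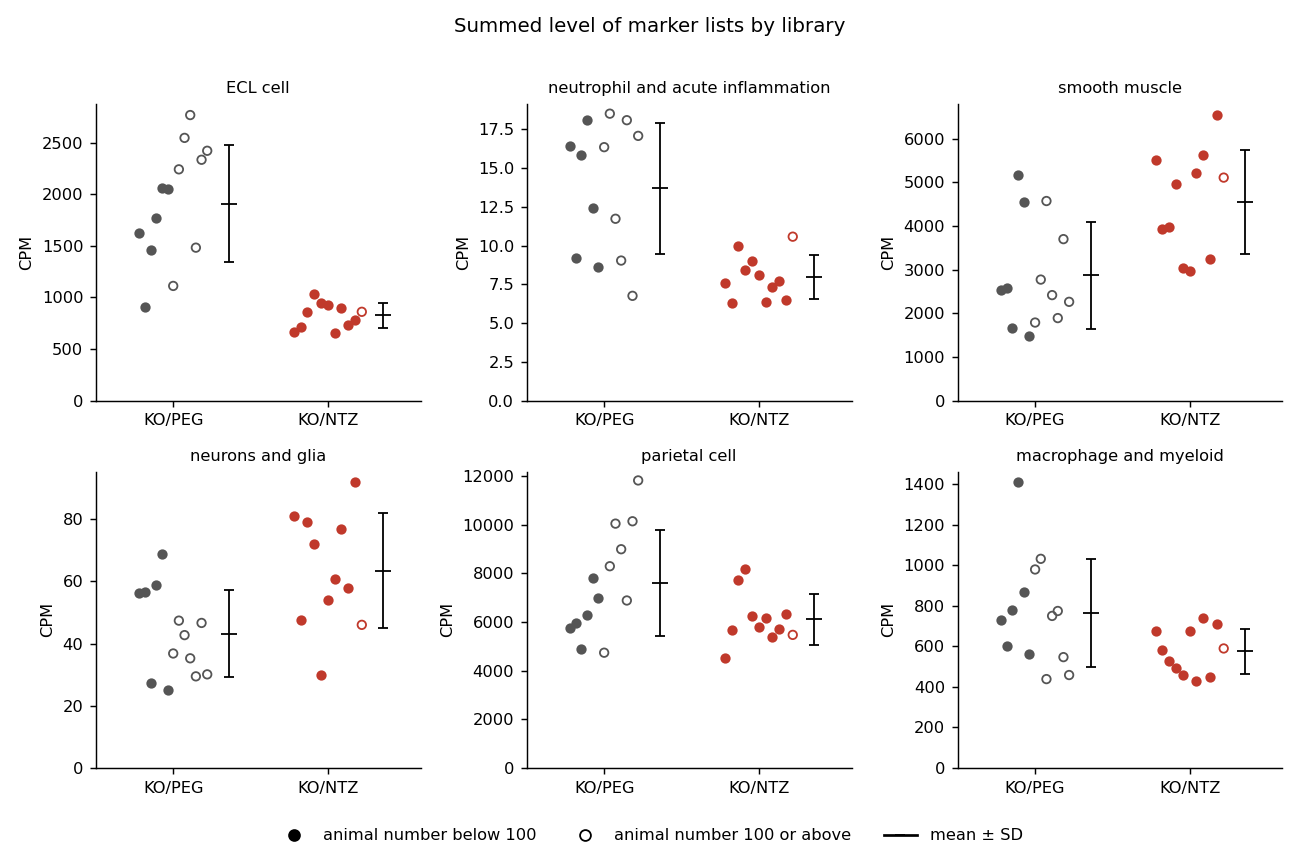
Each point is the CPM summed over the tested genes of a marker list in 1 library, 13 KO/PEG (grey) and 11 KO/NTZ (red), filled for animals numbered below 100 and open from 100 upward, with mean and SD beside each group and axes from 0. The sums of ECL cell genes (mostly Chga) and of acute inflammation genes sit lower under NTZ, and those of smooth muscle and neuronal genes higher. Parietal and macrophage sums overlap widely.

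Other genes with the smallest p on the higher side belonged to several kinds. Adgrb1, an adhesion receptor known from brain and from uptake of dying cells, rose 3.90-fold from 0.750 to 3.89 CPM in KO/PEG (median 2.15) to 5.06 to 16.7 CPM in KO/NTZ (median 8.52). Its ranges did not overlap, and the log2 fold change was 1.96 ± 0.26 (adjusted p = 0.000101, edgeR's quasi-likelihood test). Sult5a1, a sulfotransferase, rose from 0.341 CPM (0 to 0.940) to 3.03 CPM (0.324 to 3.84), with most vehicle libraries near the limit of detection. Psd, an exchange factor for Arf6, rose by 1.20 ± 0.19, Nsg2, a protein of neuronal endosomes, by 1.14 ± 0.20 and Pcp4, a calmodulin-binding peptide of neurons and smooth muscle, by 1.37 ± 0.25. Asb2, a ubiquitin ligase subunit of muscle, rose by 0.96 ± 0.17, Arhgef25, a guanine nucleotide exchange factor of muscle, by 0.73 ± 0.13, Ptgis, the prostacyclin synthase of vessel and muscle walls, by 1.10 ± 0.18, Hmcn2, a hemicentin of the matrix, by 1.605 ± 0.26 and Hoxb2 by 0.77 ± 0.13. Krt78, a keratin of stratified epithelium, rose by 1.604 ± 0.26 and Ifi27l2a, an interferon-inducible gene, by 1.37 ± 0.25. The summed smooth muscle and neuronal levels given above were also higher under NTZ. Whether these genes follow those levels from library to library was not tested, nor was the part of those levels in the result. Of the 15 genes with the smallest p among those higher, 7 passed in the animals numbered below 100, against 14 of the 15 on the lower side.

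Iron genes held 2 falls and 1 rise among 19. Tfrc, the transferrin receptor that takes up iron, fell from a median of 128.2 CPM (83.1 to 284) to 64.9 CPM (49.1 to 91.98), and 8 treated libraries lay below every vehicle library. Cybrd1, the ferric reductase that prepares dietary iron for uptake, rose from 37.7 CPM (18.8 to 66.0) to 86.7 CPM (46.7 to 176). Cp, the ferroxidase ceruloplasmin, fell from 9.94 CPM (5.33 to 26.5) to 4.96 CPM (2.28 to 8.23). The log2 fold changes were -1.08 ± 0.17, 1.27 ± 0.21 and -1.20 ± 0.25 (adjusted p = 0.00111, 0.00123 and 0.00991, edgeR's quasi-likelihood test). In the animals numbered below 100 Tfrc and Cp passed, while Cybrd1 was 1.13 higher with an adjusted p of 0.0683. The transcripts of ferritin, Fth1 and Ftl1, had log2 fold changes of -0.07 and -0.10.

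Proliferation and metabolism changed in few genes. Of 40 cell cycle genes 3 rose, Ccnb2 (cyclin B2), Ube2c and Cenpa, by 0.71 ± 0.16, 0.76 ± 0.19 and 0.55 ± 0.14, and 29 of the 40 had a log2 fold change above 0 with a median of 0.14. None of the 3 passed without KO/NTZ 30. No gene passed among 39 nuclear genes of oxidative phosphorylation, 13 genes of the mitochondrial genome and 22 of cholesterol synthesis, by edgeR's quasi-likelihood test, DESeq2 or limma-trend, with 1, 2 and 0 genes at an unadjusted p under 0.05. Of 28 interferon-stimulated genes none passed, 7 had an unadjusted p under 0.05, all lower, DESeq2 called 1 and limma-trend none. None of 11 genes of T and natural killer cells or 10 of tuft cells passed with any of the 3 tools, and none had an unadjusted p under 0.05. Of 14 B and plasma cell genes none passed, 3 had an unadjusted p under 0.05, and DESeq2 called 1 and limma-trend none.

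**Figure D4:**
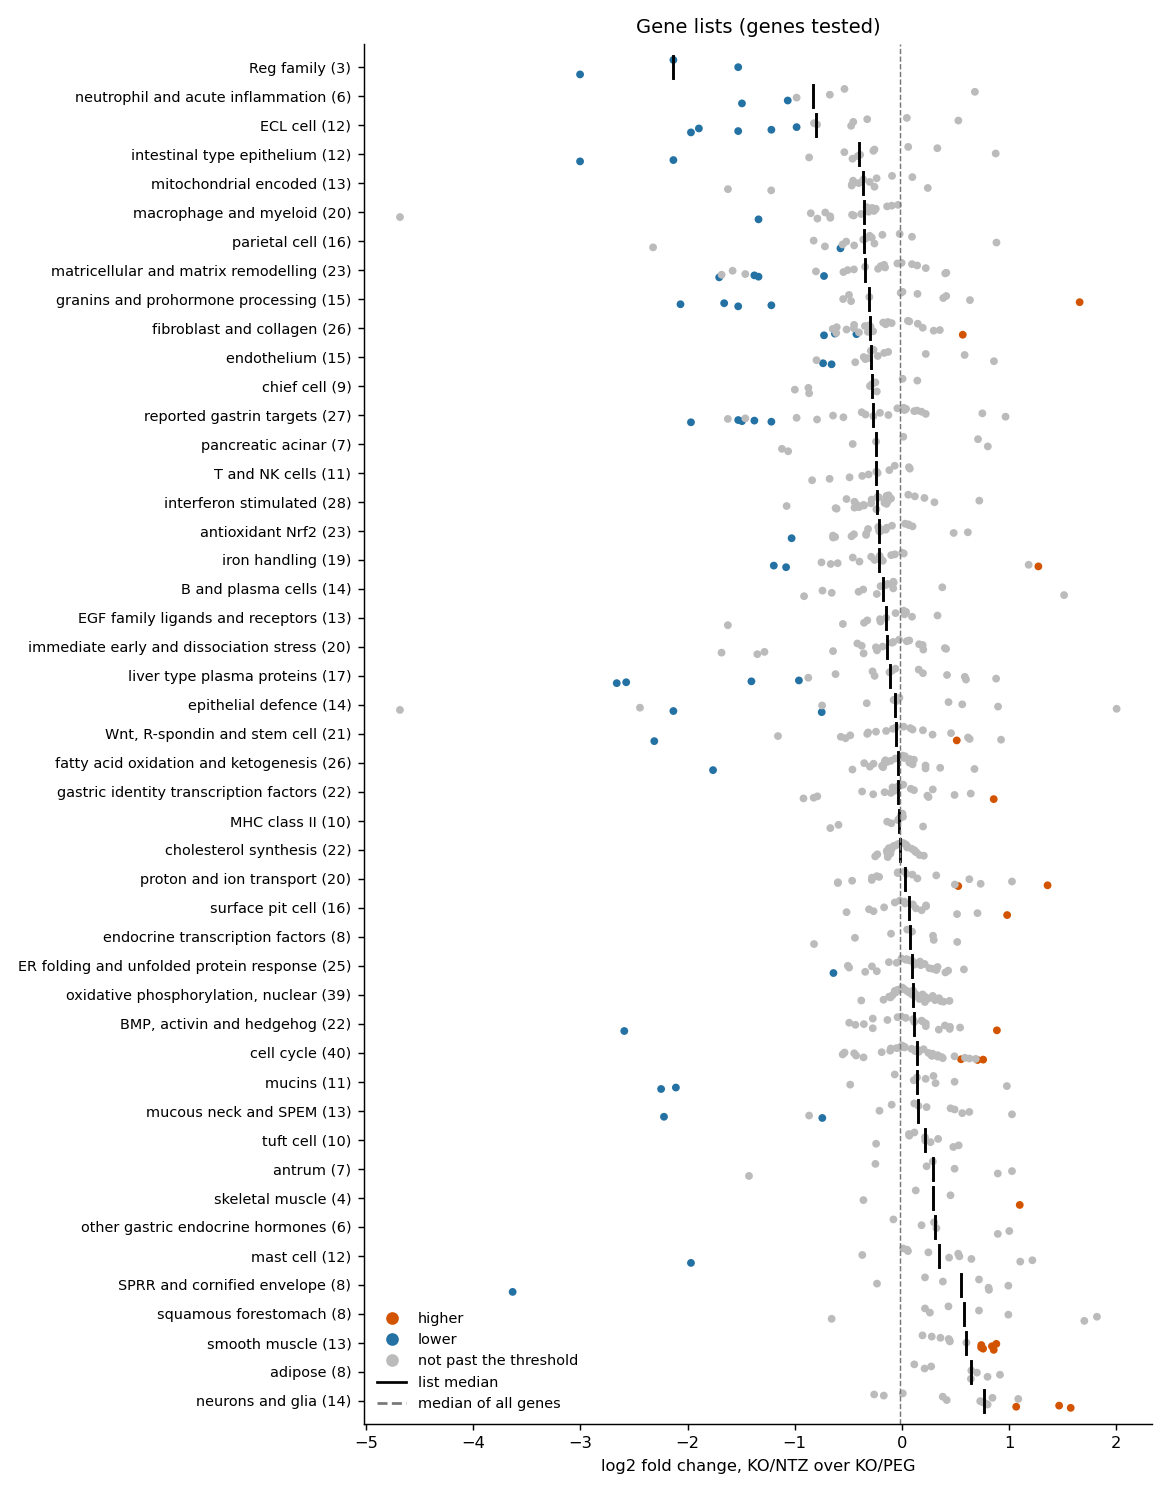
Each point is a tested gene of 1 of 47 lists, placed by its log2 fold change of KO/NTZ over KO/PEG, with the number tested after the name of the list; orange and blue mark genes called higher and lower, the black bar is the list median and the dashed line the median of all genes (-0.02). Neurons and glia, adipose and smooth muscle lists have the highest medians, and Reg family, acute inflammation and ECL cell lists the lowest.

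The effect of NTZ was then set against that in WT mice by the test of the difference in a fit of all 44 libraries. It differed in 0.966% of 14911 genes, 36 with a higher and 108 with a lower effect in KO. With library totals alone, which moved the median of all genes to -0.14, these were 11 and 158. Of the 267 genes above 57 differed, 34 of those lower and 23 of those higher under NTZ in KO. The test of the difference holds the same KO libraries that gave the 267 calls, so that this overlap and its directions are no separate support. A pair of the WT/PEG libraries carries 1 animal number, WT_172_WT_PEG, and the fit counts them as 2 samples. With that pair summed to 1 sample 25 genes had a higher and 89 a lower effect. Hdc changed by -0.75 ± 0.23 on the log2 scale in WT, and the effect in KO minus that in WT was -1.23 ± 0.31 (adjusted p = 0.0389, and 0.0510 with the pair summed, edgeR's quasi-likelihood test). Chga and Chgb changed by -0.31 ± 0.16 and -0.33 ± 0.19 in WT, and both differed from KO by the test (adjusted p = 0.0282 and 0.0106, edgeR's quasi-likelihood test). For Cckbr (WT -0.41 ± 0.24) and Pappa2 (WT -0.98 ± 0.30) the difference was not resolved, with adjusted p of 0.498 and 0.336 by edgeR's quasi-likelihood test. The effect also differed for Gc, Fst, Rspo4, Vnn1, Muc5b, Adgrb1 and Sox10, and it was not resolved for Ahsg, Serpina7 and Cybrd1. Vnn1 had opposite signs, 0.84 ± 0.33 in WT and -1.76 in KO. Krt78 rose in both, by 2.85 ± 0.57 in WT (adjusted p = 0.00514, edgeR's quasi-likelihood test), and was the 1 named gene to pass in WT, where 153 genes passed in all (1.03%). Of those, 152 were higher and 1 was lower under NTZ, so that a lower effect in KO can also come from a rise in WT. Squamous forestomach genes had a median of 2.46 in WT under NTZ with 2 of 18 called, and 0.35 in KO; their part in the result for Krt78 was not tested.

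**Figure D5:**
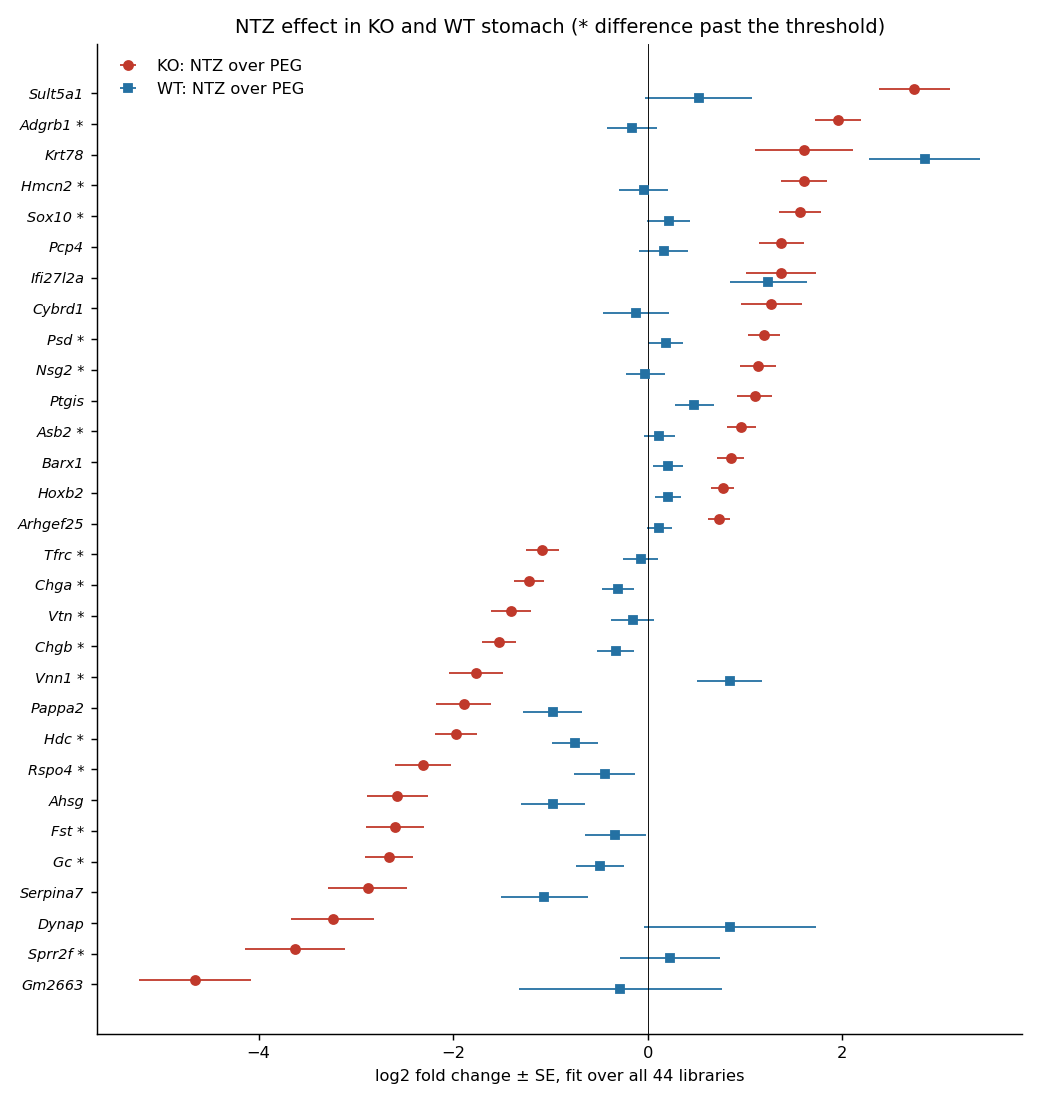
For the 15 lower and 15 higher genes with the smallest p in KO, the horizontal axis gives the log2 fold change of NTZ over PEG with its SE in KO (red circles) and WT (blue squares), both from the fit of 44 libraries; an asterisk marks the 16 genes in which the 2 effects differed past the threshold. The WT values sit near 0 for most genes, and Krt78 is higher in WT than in KO.

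Where the WT level lay is given beside the effect of NTZ; this comparison uses the same KO/PEG libraries, so that no overlap is drawn from it, and 74.5% of all genes differed between KO/PEG and WT/PEG. On the log2 scale KO/PEG exceeded WT/PEG by 1.39 ± 0.21 for Hdc, by 1.63 ± 0.16 for Chga, by 1.14 ± 0.17 for Chgb and by 1.603 ± 0.21 for Cckbr, where the log2 fold changes under NTZ in KO were -1.97, -1.22, -1.53 and -0.98. Gc and Ahsg were 0.996 ± 0.22 and 1.09 ± 0.29 above WT/PEG, with -2.66 and -2.57 under NTZ. Vnn1 and Muc5b were 4.74 ± 0.33 and 3.98 ± 0.40 above WT/PEG with -1.76 and -2.25 under NTZ. Tff2 and Muc6 were 3.73 ± 0.42 and 3.86 ± 0.46 above, and their changes under NTZ did not pass. Acta2, Prph and Sox10 were lower in KO/PEG than in WT/PEG, with differences of -0.81 ± 0.14, -1.72 ± 0.24 and -1.95 ± 0.21, and rose by 0.76, 1.47 and 1.57 under NTZ. Pcsk1n (0.02 ± 0.27) and Tfrc (0.03 ± 0.17) showed no resolved difference between KO/PEG and WT/PEG.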

How the data were processed

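RNA was sequenced from the gastric corpus of 44 samples with a poly-A selected, stranded kit and single reads. The authors deposited estimated counts per transcript, made with kallisto 0.42.4 on GRCm38 transcripts; sleuth and bcl2fastq are the other tools in the submitters' processing notes. How strand was set is not given in the sources used here. Of 94080 transcripts, 92372 were paired with 31517 genes of GENCODE M21, and their deposited estimated counts were summed per gene and rounded; unpaired transcripts held 0.329% to 1.3% of the counts of a library.

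The 24 KO libraries were fitted in edgeR 4.0.16 (R 4.3.3): filterByExpr (minimum count 10), trimmed mean (TMM) factors, glmQLFit and glmQLFTest, two-sided, with Benjamini-Hochberg adjustment over all genes tested and a threshold of 0.05. CPM values use the same factors, except those of Atp4b, which use factors over all 44 libraries. The difference between KO and WT was a contrast over all 44 libraries. SE values were derived from the log2 fold change and the F statistic. Levels of lists and library properties were compared by a two-sided permutation test (100000 resamples), adjusted over all of them. DESeq2 1.42.0 and limma-trend 3.58.1 were alternatives, with other scalings, filters, covariates and sets of libraries. The fitting script was tested on simulated data.

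Named genes were the 15 with the smallest p in each direction and, from each list described, up to 4 members with the smallest p or its defining members; 1 such gene is not reported here. The comparison, the gene lists and the promoters shown were chosen with earlier results of these data known. A call made by a few reads, by estimated counts split between near-identical genes, or by overlapping genes is less certain than its p.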

Additional observations from a re-analysis of the deposited data

Results flagged for a closer look

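For 28 of the named genes NTZ acted differently in KO than in WT, by the contrast of both effects in the quasi-likelihood test of edgeR, adjusted over 14911 genes. With the pair of WT/PEG libraries of 1 animal number summed, 25 of the 28 passed and all 28 kept their direction, while Hdc, Pcsk1n and Asb2 had adjusted p of 0.0510, 0.0574 and 0.0538 by edgeR. The named genes were chosen largely by their p in KO. This contrast holds the same KO libraries, so that its calls among them are no separate support. Values are the log2 effect in KO minus that in WT. Among endocrine genes it was -1.23 for Hdc, -1.20 for Chgb, -0.91 for Chga, -1.40 for Pcsk1 and 1.58 for Pcsk1n. Among secreted and signalling proteins it was -2.17 for Gc, -1.26 for Vtn, -2.26 for Fst, -1.87 for Rspo4 and 0.65 for Sfrp1. In the epithelium it was -2.61 for Vnn1, -3.85 for Sprr2f, -2.41 for Muc5b, -3.52 for Muc13 and 0.64 for Scnn1a. Iron genes gave -1.01 for Tfrc and -1.43 for Cp. Stromal and proliferation genes gave -1.56 for Mmp12, 0.77 for Fbln1 and 0.99 for Ccnb2. Nerve genes gave 1.35 for Sox10, 1.19 for Uchl1 and 1.41 for Prph, and the remaining genes 2.12 for Adgrb1, 1.01 for Psd, 1.65 for Hmcn2, 0.84 for Asb2 and 1.16 for Nsg2.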

How the results depend on the processing

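Of 267 genes between KO/NTZ and KO/PEG, 146 of them higher, the count moved beyond 1.5 times under these settings, given as all, higher and lower: DESeq2 566, 311 and 255; all 44 libraries in 1 fit 852, 450 and 402; the mitochondrial percent as a covariate 446, 260 and 186; the minimum count of 50 148, 86 and 62; the animals numbered below 100 102, 24 and 78; without the pair numbered 110 136, 73 and 63. With library totals alone it was 162 with 67 higher, with the animal number class as a covariate 94 were higher, and with 2 settings chosen after seeing the data it was 470, 288 and 182 (first principal component as a covariate) and 62 lower (without the 3 libraries at its ends). Leaving out 1 library gave 153 to 383 genes, 87 to 231 higher and 66 to 167 lower. The difference between KO and WT held 36 higher and 108 lower genes, 68 and 205 by DESeq2 (273 in all), 25 and 31 by limma-trend (56 in all), and 25 and 89 with the WT/PEG pair of 1 animal number summed. Of the 68 named genes past the threshold, none changed sign in any of these fits. The fits share most or all of their libraries with the main fit, so that this is no separate test. All 68 were called by DESeq2, with DESeq2 size factors in edgeR and in edgeR's robust fit, and 31 of 67 tested in the animals numbered below 100. Genes not called reversed in 3 cases: Tff2 to -0.060 with the first principal component, Atp4a to 0.10 in the animals numbered below 100, and Pgc to 0.73 with the number class, to 1.09 below 100 and over -0.41 to 0.0028 when 1 library was left out. The causes were not tested.

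No paired analysis was possible because the KO groups share 1 animal number only. Depth limits genes near 3 counts, such as Dynap, Rspo4 and Gm2663, and the 11 against 13 libraries limit calls of small changes in genes with a wide spread, such as Tff2 and Pgc. Whether the number class marks a batch, in KO or in WT, cannot be told from the labels.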

Other observations

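Immunoglobulin variable and joining segments, looked at after their values were seen, leaned to one side. Under NTZ 17 segments were lower (15.6% of those tested) and none was higher, 71 had an unadjusted p under 0.05 on the lower side and none on the higher, and the median log2 fold change was -1.34 against -0.02 over all genes. The segments are near copies between which reads can be split, and they cannot be counted as independent genes. The list of 14 B and plasma cell genes had a median of -0.18 and a summed level of 3529 to 14502 CPM in KO/PEG and 3266 to 11697 CPM in KO/NTZ (permutation test, adjusted p = 0.61).

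Part of the interferon-stimulated genes differed between KO and WT in the effect of NTZ. In the fit of 44 libraries 11 of 29 had a lower effect of NTZ in KO than in WT past the threshold and none a higher one. Over all genes 0.966% differed, in either direction. In WT 20 of the 29 were higher under NTZ, with a list median of 1.63, against -0.24 in KO. Over all genes 1.03% passed in WT, in either direction. The effect in WT alone was not fitted in other settings or with single libraries left out. With a test per transcript, the paper listed only 3 genes that differed between WT/NTZ and WT/PEG, all lower under NTZ. Other lists also lay higher in WT under NTZ: the median was 2.46 for squamous forestomach genes (2 of 18 called), 2.85 for SPRR and cornified envelope genes (1 of 14), 1.57 for MHC class II genes (6 of 11), 1.45 for skeletal muscle genes (3 of 6) and 1.14 for B and plasma cell genes (0 of 15), and their part in the interferon result was not tested. Genes of mast cells other than Hdc leaned upward in KO, Tpsb2 by 1.10 and Tpsab1 by 1.22 on the log2 scale (adjusted p = 0.074 and 0.087, edgeR's quasi-likelihood test), and Hdc was the 1 called gene of 12 by that test, while DESeq2 and the fit of 44 libraries each called 3 of the 12 higher beside it.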
